A study of Ovis aries with 6 samples.

Results

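The genes DQB1, PSMB8, CD1D and CD1, 4 genes of antigen presentation, were followed in sheep skin of a fine wool breed, Aohan, and a coarse wool breed, small tail Han. They are read by 5 of the 15008 probes of the array, which are A_70_P017031 for DQB1, A_70_P071596 for PSMB8, A_70_P002726 and A_70_P002727 for CD1D, and A_70_P017087 for CD1. The probes were chosen from the breed contrast itself, so their breed differences are described below and carry no test. A second probe of CD1, A_70_P017086, was not part of that choice and is described beside the first. The MHC class II probe has no gene symbol in the reference and was named DQB1 from the description in the study's probe table.

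RNA came from full-thickness body side skin, about 1 cm2 per animal, of 3 sheep labelled Aohan fine wool and 3 labelled small tail Han, all 12 months old and in the growing phase of the wool follicle, and each animal was read on an array of its own with 1 dye. The labels name no treatment, and the study's methods state that the skin was taken with local anaesthesia. Each breed was represented by 2 ewes and 1 ram, whose array is not marked as such in the labels. The sheep of a breed had the same sire, so breed and sire family cannot be told apart, and the arrays of a breed were scanned together, so breed and scan cannot be told apart either. The scanner software also applied a multiplicative surface correction to the 3 Aohan arrays and to small tail Han replicate 1 but not to small tail Han replicates 2 and 3, and its part in the differences was not tested.

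MHC molecules carry peptides to the cell surface, where T cells read them. Class II molecules, such as the DQ pair to which DQB1 gives the beta chain, load peptides from material that dendritic cells, macrophages and B cells have taken up. Class I molecules load peptides that the proteasome has cut inside the cell, and PSMB8 is a catalytic subunit that takes its place in the immunoproteasome, the form induced by interferon gamma. CD1 molecules resemble class I in shape but hold lipids, and CD1D presents glycolipids to natural killer T cells. In skin, presentation by class II and CD1 molecules is known above all from Langerhans cells and dermal dendritic cells. MHC genes vary strongly between animals, and the alleles of these sheep were not analysed here.

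A level below is the log2 of the background-corrected signal minus the array's 75th percentile over all non-control probes, so that 0 stands for a probe at that percentile. Differences are Aohan minus small tail Han on this log2 scale, and ± is the SD over 3 sheep. The 75th percentile of the intensity was 1103 to 2048 on Aohan arrays and 1747 to 2309 on small tail Han arrays, with 10734 to 13387 and 11055 to 12963 probes well above background. Of the 12480 probes tested with limma, 1893 (15.2%) passed a Benjamini-Hochberg adjusted p of 0.05, 945 (7.57%) higher and 948 (7.6%) lower in Aohan sheep, and the median difference of all tested probes was 0.03. Stratifin (SFN), an epidermal protein, and decorin (DCN), a dermal proteoglycan, were well above background on every array, with differences of 0.08 (adjusted p = 0.896) and -0.08 (adjusted p = 0.888).

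DQB1 showed the widest gap of the genes followed. Its probe A_70_P017031 read 3.62, 4.24 and 3.68 in the Aohan sheep, against -3.50, -3.88 and -3.76 in the small tail Han sheep. No small tail Han array came near an Aohan array, the nearest values of the breeds being 7.12 apart. In processed intensity, before any scaling, the same spots gave 13525, 38762 and 14485 units in Aohan sheep and 204.1, 124.5 and 129.2 units in small tail Han sheep. The means were 3.85 ± 0.35 in Aohan skin and -3.71 ± 0.20 in small tail Han skin (SD, n = 3 each), a difference of 7.56 (SE 0.20) or 189-fold. By size it stood at rank 2 of the 12480 tested probes. The dim breed was still measured, since the probe was well above background on all 3 small tail Han arrays.

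PSMB8 was higher in Aohan skin by a much smaller step. Levels were -0.75, -0.16 and -0.69 in Aohan sheep and -1.48, -2.05 and -1.86 in small tail Han sheep. The breeds did not overlap, with 0.73 between the nearest arrays. The means of -0.53 ± 0.32 in Aohan skin and -1.80 ± 0.29 in small tail Han skin differed by 1.26 (SE 0.22), or 2.4-fold, which ranked 774 by size. Within each breed the highest PSMB8 level lay on the array with the highest 75th percentile of that breed, replicate 2 in Aohan sheep (2048) and replicate 1 in small tail Han sheep (2309). DQB1 was also highest of its breed on these arrays, and both CD1D probes were lowest there. The part of array brightness in these levels was not tested. With another background correction (normexp) the PSMB8 difference was 0.67.

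CD1D went the other way at both of its probes. A_70_P002727 read -3.35, -3.49 and -3.24 in Aohan sheep against -2.13, -2.01 and -1.84 in small tail Han sheep, and the nearest arrays of the breeds were 1.11 apart. Its difference was -1.36 (SE 0.17), that is 2.57-fold lower in Aohan skin, with SDs of 0.12 in Aohan and 0.15 in small tail Han sheep (n = 3 each). A_70_P002726 read -0.89, -1.64 and -0.94 in Aohan sheep against -0.51, -0.49 and 0.05 in small tail Han sheep. Here the spread was larger and the gap only 0.38, with Aohan replicate 2 lowest and small tail Han replicate 3 highest. The difference at this probe was -0.84 (SE 0.25), or 1.79-fold lower in Aohan skin. The normexp correction gave -0.86 for A_70_P002727.

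CD1, which lies a few genes from CD1D in the sheep reference, was higher in Aohan skin. A_70_P017087 read -3.57, -3.39 and -3.62 in Aohan sheep, which lay close together, and -5.82, -7.36 and -4.84 in small tail Han sheep, which did not. Small tail Han replicate 2 was not well above background, and its intensity of 11.2 units was a floor shared by 1825 probes on that array. The difference over all arrays was 2.48 (SE 0.55), or 5.59-fold, and over the arrays well above background it was 1.81. The normexp correction gave 1.06. The second probe, A_70_P017086, read -2.04, -2.18 and -2.28 in Aohan sheep and -4.46, -5.33 and -3.57 in small tail Han sheep, with small tail Han replicate 2 again not well above background. Its difference was 2.29 (SE 0.39), and 1.85 over the arrays well above background, and both CD1 probes put the small tail Han sheep in the same order.

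**Figure D1:**
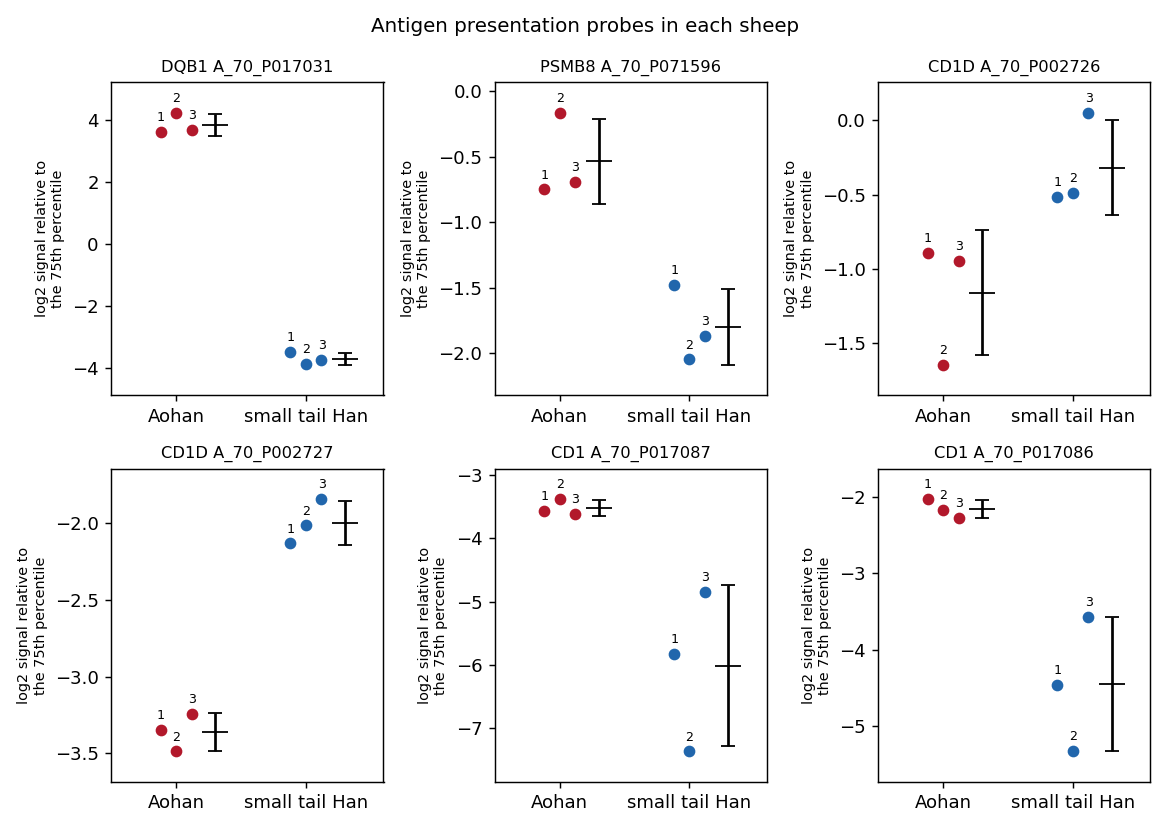
Level of each antigen presentation probe (log2 signal relative to the array's 75th percentile) in 3 Aohan and 3 small tail Han sheep, numbered by replicate, with the mean and SD in black; each panel has its own vertical scale. The breeds do not overlap in any panel, DQB1 lies near 4 in Aohan and near -4 in small tail Han sheep, and both CD1D probes are lower in Aohan sheep.

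At all 5 chosen probes the 3 Aohan values lay on one side of the 3 small tail Han values. Such separation was found at 34.2% of all tested probes, 17.8% with Aohan higher and 16.4% with Aohan lower, and the 5 probes were chosen for this contrast. All 5 also passed the filter on dim probes. The directions of the differences were the same with quantile normalization, median centring, normexp and the values of the deposited series matrix, as the plot of the differences under each way of processing shows.

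**Figure D2:**
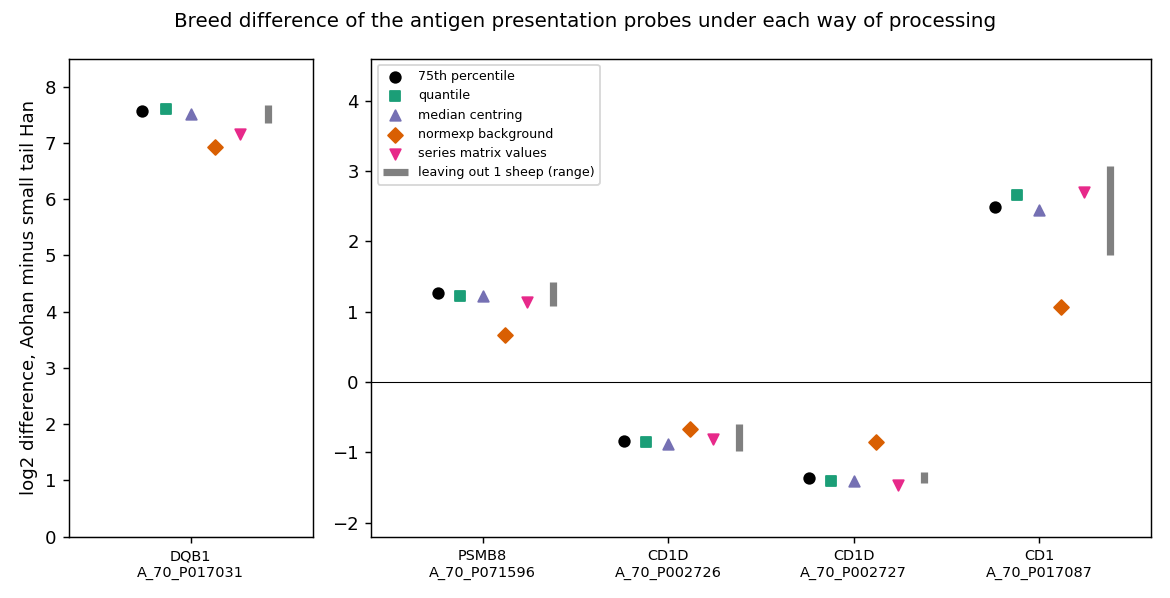
Breed difference (log2, Aohan minus small tail Han) of each antigen presentation probe under the 75th percentile scaling, 3 other scalings or background corrections and the deposited series matrix, with the range over leaving out 1 sheep at a time as a grey bar; DQB1 has its own axis. No probe changes sign, and the lowest CD1 value is the 1.06 of the normexp correction.

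The other MHC class II probes were few. Of 38 class II names searched, beside DQB1, only DYA was matched by symbol, and a probe described as DRB1 was added by its description. Of these 2, 1 was higher in Aohan skin and none lower, with a median difference of 0.66 against 0.03 over all probes. Of all tested probes, 7.57% were higher and 7.6% lower. The probe described as DRB1, the beta chain of the DR class II molecule (A_70_P024146), read -3.29, -2.63 and -3.06 in Aohan sheep and -4.48, -4.99 and -4.42 in small tail Han sheep. The breeds stood 1.13 apart at the nearest, and the difference of 1.64 (SE 0.26) passed the limma test (adjusted p = 0.00441). With normexp it was 1.05. This probe has its name only through the study's own list of changed probes, so its call is not independent evidence of a direction. Its gene is also uncertain, since the scanner files tie the probe to another transcript record than that list does. The same mismatch holds for every other MHC, peptide-loading, proteasome or marker probe below that the list names, except A_70_P049101, while for DQB1 both give the same record. DYA, the alpha chain of a class II molecule of ruminants, is named by the reference and read 0.13, 0.17 and 0.28 in Aohan sheep against 0.08, 0.56 and 0.89 in small tail Han sheep. The breeds overlapped at DYA, and its difference of -0.31 did not pass (limma adjusted p = 0.362).

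Class I genes and the machinery that loads them gave calls in both directions. Of 7 entries tested, 4 were higher in Aohan skin and 1 lower, with a median of 0.74 against 0.03 over all probes. The shares of all tested probes were 7.57% higher and 7.6% lower. The 2 entries named by the reference were not called, and 5 owe their names to the study's list of changed probes, which is not independent evidence. A_70_P049101 and A_70_P068241 are counted apart among these 5, though the array assigns both to the same transcript. TAP2, a subunit of the transporter that brings proteasome peptides into the endoplasmic reticulum, read 3.76, 3.63 and 3.81 in Aohan sheep and 2.68, 2.87 and 3.03 in small tail Han sheep, a difference of 0.87 (limma adjusted p = 0.00925) that was not called with normexp (0.60, adjusted p = 0.05). Calnexin (CANX), a chaperone of new class I chains, differed by 0.74 (limma adjusted p = 0.0117). In the order of genes in the reference, TAP2 is the neighbour of PSMB8, and TAP1 and PSMB9, genes of the other transporter subunit and of another immunoproteasome subunit, follow on the other side of PSMB8; no probe was matched to either. Leaving out small tail Han replicate 2 ended the calls of TAP2 and CANX (adjusted p = 0.0537 and 0.0623), and leaving out small tail Han replicate 3 ended that of CANX (adjusted p = 0.0547).

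Probes described as class I heavy chains did not move as one. A_70_P001626, for which the scanner files and the study's list give different transcript records, read -2.28, -1.37 and -1.82 in Aohan sheep against -4.73, -4.86 and -4.17 in small tail Han sheep, higher by 2.77 (SE 0.28, limma adjusted p = 0.000408), or by 1.65 with normexp. A_70_P049101 read -5.77, -6.21 and -5.54 in Aohan sheep, where 2 of 3 arrays were well above background, against -1.96, -2.98 and -2.40 in small tail Han sheep. It was lower in Aohan skin, with a difference of -3.39 (SE 0.31, limma adjusted p = 0.000238), or -1.75 with normexp. It was the only lower call of the class I list, and it was not tested when probes had to be well above background on all 6 arrays. A_70_P068241, which the array assigns to the same class I transcript, read 0.02, 0.53 and 0.03 in Aohan sheep against -0.48, -1.11 and -0.75 in small tail Han sheep. Its difference was 0.97 (limma adjusted p = 0.017), opposite to that of A_70_P049101, and the call was lost when small tail Han replicate 2 or replicate 3 was left out (adjusted p = 0.0767 and 0.0542).

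OVAR, an MHC class I gene named by the reference, was among the bright probes and was called at neither of its probes. A_70_P016117 read 5.44, 5.63 and 5.53 in Aohan sheep and 4.88, 4.995 and 5.56 in small tail Han sheep, and A_70_P001716 read 5.14, 5.21 and 5.16 in Aohan sheep and 4.46, 4.55 and 5.10 in small tail Han sheep. Small tail Han replicate 3 stood among or close to the Aohan sheep at both, and the differences of 0.39 and 0.47 had limma adjusted p of 0.299 and 0.187. FCGRT, the class I-like heavy chain of the neonatal Fc receptor, differed by -0.22 (limma adjusted p = 0.61).

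**Figure D3:**
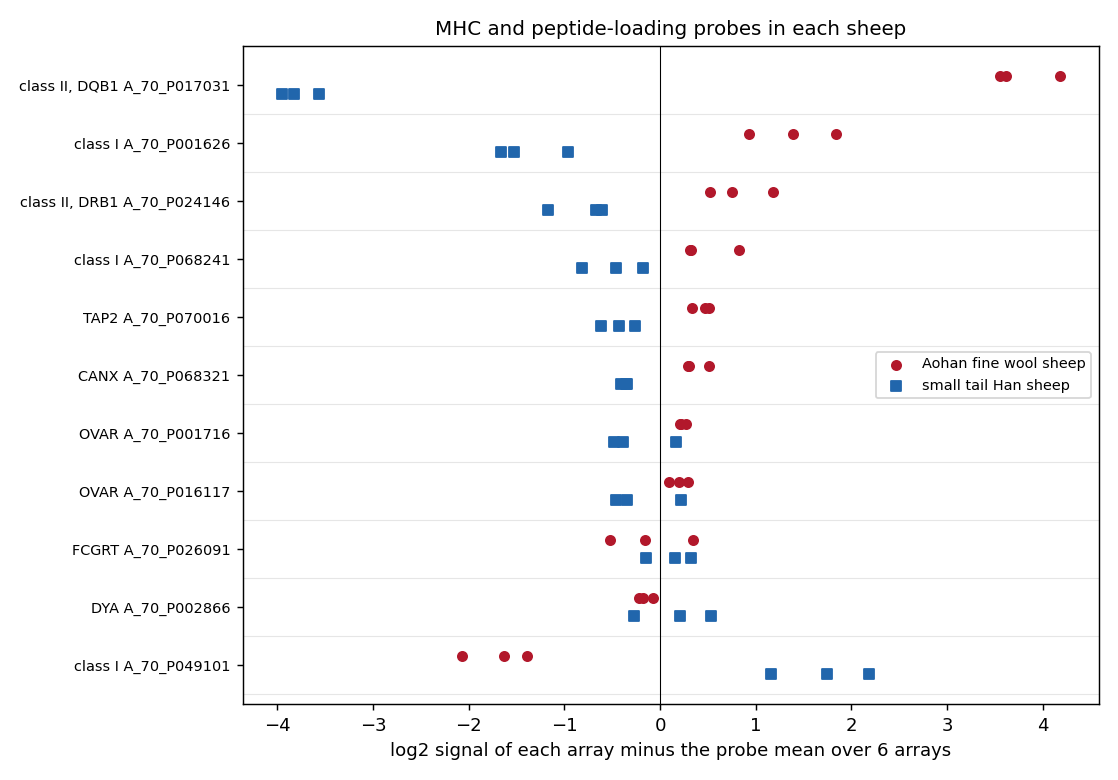
Signal of each array (log2, minus the probe's mean over 6 arrays) for DQB1 and the other MHC and peptide-loading probes, Aohan sheep as circles above small tail Han sheep as squares, ordered by breed difference. DQB1 spans the widest range, and the 2 class I probes of the same transcript, A_70_P068241 and A_70_P049101, lie on opposite sides.

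Other proteasome genes gave no call in the direction of PSMB8. Of 4 tested, none was higher in Aohan skin and 2 were lower, beside 7.57% higher and 7.6% lower among all tested probes. The 4 differences ran both ways, from -3.04 to 0.69, and their median of -1.01 turned to 0.19 with only probes well above background on all 6 arrays or with any probe of a gene. A_70_P033746, described as a regulatory subunit of the proteasome cap, read -3.91, -3.97 and -3.83 in Aohan sheep and -1.99, -1.47 and -1.61 in small tail Han sheep, a difference of -2.21 (SE 0.19, limma adjusted p = 0.000175). A_70_P058586, described as an alpha subunit of the proteasome core, read -6.25, -5.58 and -5.75 in Aohan sheep, where 1 of 3 arrays was well above background, and -3.01, -2.69 and -2.76 in small tail Han sheep. Its difference was -3.04 (limma adjusted p = 0.000154), set against Aohan signals near background, and it was -1.45 with normexp; with only probes well above background on all 6 arrays it was not tested. Both names come from the study's list of changed probes. The genes named by the reference were not called: PSMA6, a core subunit, differed by 0.19 (limma adjusted p = 0.592), and PSMD4, a ubiquitin receptor of the cap, by 0.69 and 0.97 at its probes (adjusted p = 0.185 and 0.118), or 0.43 and 0.52 with normexp. PSMD4 was called at both probes without small tail Han replicate 1 (differences 1.02 and 1.41, adjusted p = 0.0277 and 0.00994).

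Interferon genes were checked because interferon gamma induces PSMB8 and the MHC genes. Of 10 tested, all named by the reference, none was higher and 3 were lower in Aohan skin. Among all tested probes 7.57% were higher and 7.6% lower. The median of the list was -0.28 against 0.03 over all probes. ISG15, a ubiquitin-like protein induced by type I interferon, read -1.32, -1.79 and -1.40 in Aohan sheep and -0.17, 0.14 and 1.72 in small tail Han sheep, a difference of -2.07 (SE 0.43, limma adjusted p = 0.0137). MX2, an antiviral GTPase, read 0.08, -0.83 and -0.49 in Aohan sheep and 0.67, 1.26 and 2.30 in small tail Han sheep, a difference of -1.82 (limma adjusted p = 0.0159). Small tail Han replicate 3 was the highest of the 6 at both genes. IRF2, a transcription factor that competes with IRF1, differed by -0.79 (limma adjusted p = 0.0194). The calls of MX2 and IRF2 were lost without Aohan replicate 3 (adjusted p = 0.0504 and 0.0842), and that of IRF2 also without small tail Han replicate 2 or 3 (0.112 and 0.0724) and with normexp (-0.59, adjusted p = 0.108). MX1, the other antiviral GTPase, differed by -0.83 (adjusted p = 0.178) and was called with normexp (-1.17, adjusted p = 0.000509). IFNAR1, a receptor chain of type I interferon, differed by -0.14 (adjusted p = 0.712). CXCL10, a chemokine induced by interferon gamma and named here with its values in view, differed by 1.28 (adjusted p = 0.0639) and was called with normexp (0.94, adjusted p = 0.00239) and without small tail Han replicate 3 (1.83, adjusted p = 0.00146).

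Around CD1 the array offered a further comparison along the chromosome. In the reference, 6 protein-coding genes lie between CD1D and CD1, and 2 of them had probes; both were chosen here by position with their values in view, and the reference gives them no function. LOC443441, the gene next to CD1, read 3.08, 3.07 and 2.99 in Aohan sheep and 1.81, 1.73 and 2.52 in small tail Han sheep at A_70_P030071. The difference was 1.03 (limma adjusted p = 0.0154), and it was 0.89 at A_70_P030073 (adjusted p = 0.0255). Without small tail Han replicate 2 the adjusted p values were 0.0764 and 0.11, and the call of A_70_P030073 was also lost when Aohan replicate 2 or 3 or small tail Han replicate 1 was left out (0.0649, 0.071 and 0.05). LOC443442, in the middle of the stretch, had values of 2.44 and 2.46 on 2 Aohan arrays, the other spot carrying an outlier mark, and 1.42, 1.64 and 2.47 in small tail Han sheep. The breeds overlapped there, with a difference of 0.61 (limma adjusted p = 0.227), and without small tail Han replicate 3 it was 0.92 (adjusted p = 0.0446), and with normexp 0.70 (adjusted p = 0.0327). A search around CD1 held 29 names, among them other CD1 molecules and genes that prepare lipids for CD1. Only HEXA, a lysosomal enzyme that trims gangliosides, was matched on the array, and it differed by -0.13 (limma adjusted p = 0.795). The search went by gene symbol, so a CD1 gene that the reference lists under a LOC name could not be matched. Whether LOC443441 or LOC443442 is such a gene was not tested.

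**Figure D4:**
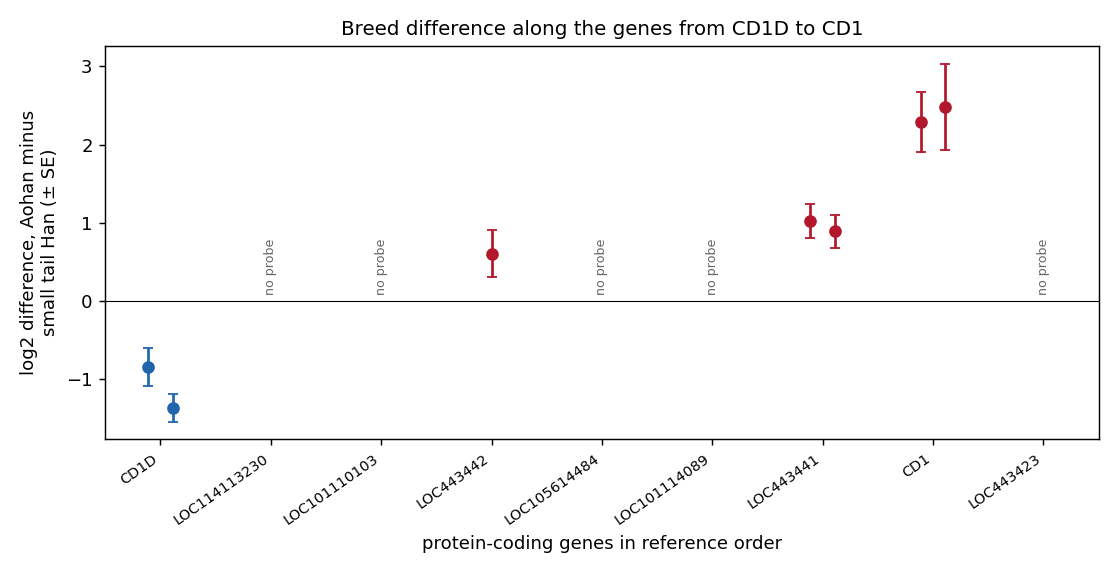
Breed difference (log2, Aohan minus small tail Han, ± SE) of every probe along the protein-coding genes from CD1D to the gene after CD1, in reference order and not to genomic scale. Both CD1D probes lie below 0, LOC443442 and LOC443441 lie at 0.61 to 1.03 and both CD1 probes at 2.29 and 2.48; genes with no probe are marked.

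The cells that carry these molecules were read from marker genes. In bulk skin, fewer cells of a type and less RNA per cell cannot be told apart. Of 18 marker genes tested, 4 were higher in Aohan skin and none lower, beside 7.57% higher and 7.6% lower among all tested probes. LOC100037688, among these 4, owes its name to the study's list of changed probes, so its call is not independent evidence. CD3E, a chain of the T cell receptor complex, read 2.49, 2.29 and 2.22 in Aohan sheep and 0.86, 1.08 and 1.74 in small tail Han sheep, a difference of 1.11 (SE 0.23, limma adjusted p = 0.0135), with 1.05 at its other probe (adjusted p = 0.0104). CD3D, another chain of the complex, differed by 0.92 (adjusted p = 0.0362) and 0.73 (adjusted p = 0.088, or 0.00681 with normexp). ITGB2, the leukocyte integrin beta chain, differed by 0.95 (adjusted p = 0.0108) and 0.71 (adjusted p = 0.0284); the call of the second probe was lost when any of 4 sheep, small tail Han replicate 2 or 3 or Aohan replicate 2 or 3, was left out (adjusted p = 0.122, 0.0675, 0.0593 and 0.0795). LOC100037688, an immunoglobulin kappa light chain by the study's list of changed probes, read 1.05, 1.40 and 0.86 in Aohan sheep and -1.27, -1.70 and -1.50 in small tail Han sheep, a difference of 2.59 (limma adjusted p = 9.32e-05). Without small tail Han replicate 2 only the kappa chain of these 4 kept its call, the adjusted p values being 0.0638 for CD3E, 0.118 for CD3D and 0.0563 for ITGB2; the call of CD3D was also lost without any other sheep but small tail Han replicate 3.

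The markers of the cells best known for DQB1 and CD1D did not pass the test. Dendritic and Langerhans cells had 3 of 23 markers on the array, of which 0 passed: CD80 and CD86, the costimulatory ligands, differed by -0.06 and 0.30 (limma adjusted p = 0.902 and 0.403), and FCER1A, an IgE receptor chain, by 0.14 (adjusted p = 0.74). Their summed linear signal, in units of the 75th percentile, was 1.7 to 2.23 in Aohan sheep and 1.37 to 2.11 in small tail Han sheep. Macrophages had 5 of 17 markers and 0 passed, with sums of 0.673 to 1.21 in Aohan sheep and 0.68 to 0.784 in small tail Han sheep; the brightest, CD14, a receptor of bacterial lipopolysaccharide, TLR2, a receptor of bacterial lipoproteins, and FCGR1A, an IgG receptor, differed by 0.19, -0.05 and 0.55 (adjusted p = 0.721, 0.901 and 0.106). CD207, ITGAX and CD68 were not among the names matched on the array.

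Lymphocyte lists gave the following sums, each carried by few genes. T cell and NK cell markers, 6 of 17 on the array, summed to 6.57 to 7.99 in Aohan sheep and 2.73 to 4.91 in small tail Han sheep; CD3E and CD3D, the 2 of 4 tested that passed, made up most of each sum. LCK, a T cell kinase, differed by 0.34 (limma adjusted p = 0.285), CD4 was well above background on 1 array and CD28 on none. CD247, a further chain of the T cell receptor complex named here with its values in view, was called at neither probe. Its differences were 0.37 and 0.59 (limma adjusted p = 0.432 and 0.309). B cell and plasma cell markers, 2 of 12, summed to 2.07 to 2.88 in Aohan sheep and 0.621 to 0.683 in small tail Han sheep, but the breeds part only at the kappa chain, whose name comes from the study's list of changed probes; CR2, the complement receptor of B cells, differed by -0.16 (adjusted p = 0.555). The pan-leukocyte list, with ITGB2 alone of 7, ran from 0.639 to 0.939 in Aohan sheep and from 0.361 to 0.419 in small tail Han sheep. The part of cell numbers in the levels of DQB1, PSMB8, CD1D and CD1 was not tested. The keratinocyte list, with SFN alone of 16, overlapped between the breeds at 170 to 293 in Aohan sheep and 196 to 247 in small tail Han sheep, as did the fibroblast list, DCN and biglycan (BGN, difference 0.16, adjusted p = 0.551), at 116 to 203 and 141 to 212, and no endothelial marker was matched.

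**Figure D5:**
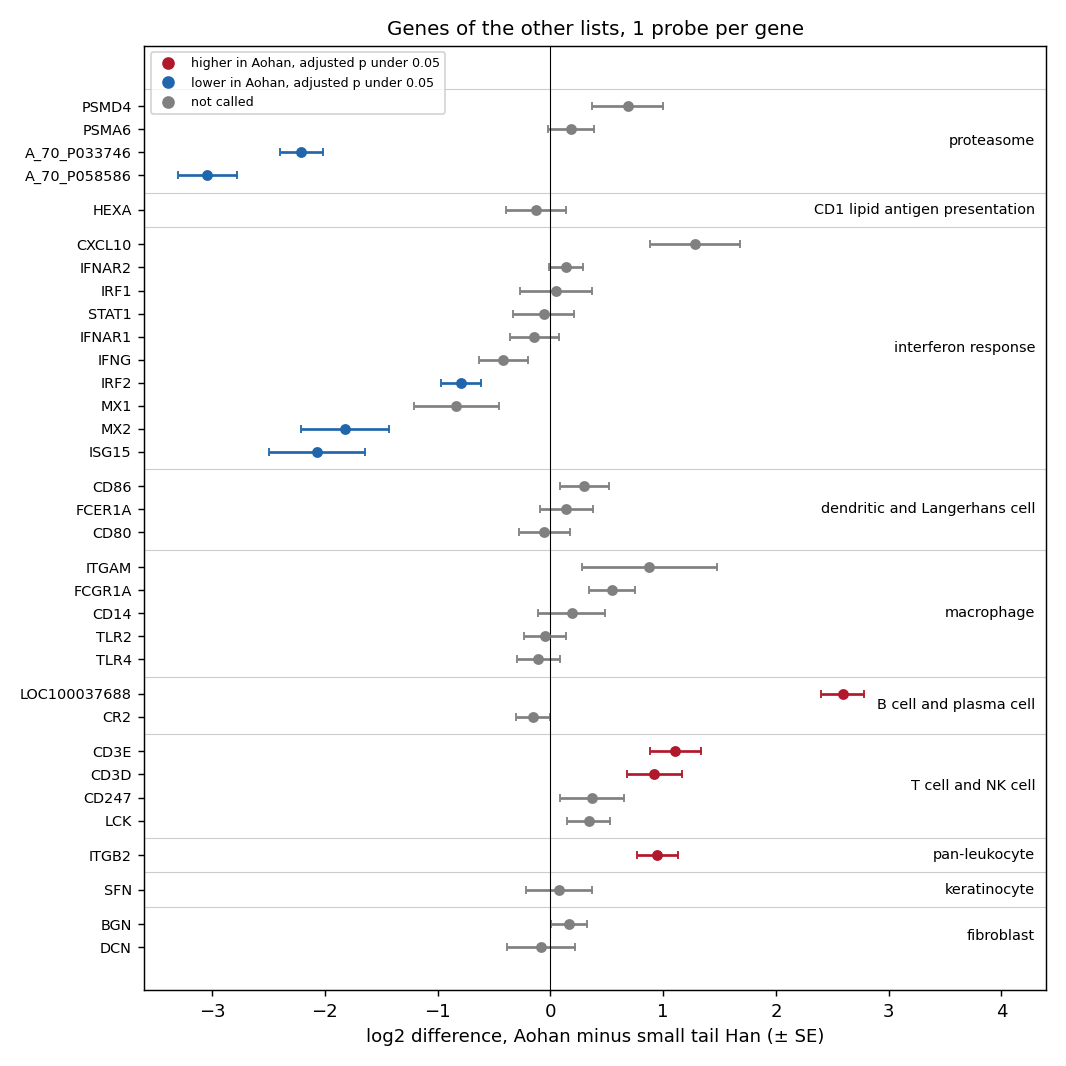
Breed difference (log2, Aohan minus small tail Han, ± SE) of each tested gene, 1 probe per gene, in the proteasome, lipid presentation, interferon and cell type marker lists, coloured by call. The called proteasome and interferon genes lie below 0, from -3.04 to -0.79, and the 4 called marker genes above 0, from 0.92 to 2.59.

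The genes whose levels ran most like each probe over the 6 arrays were picked by Pearson's r among 715 tested probes with a symbol. These values describe a likeness in which the split of the breeds weighs most, and the arrays are the same for all. DQB1 was most like LOC443313, a small proline-rich protein (r = 0.999), ERLEC1, a lectin of the endoplasmic reticulum (0.996), and the kappa chain LOC100037688 (0.995), whose own differences were 4.52, 0.45 and 2.59. PSMB8 was most like SLC5A1, a sodium and glucose transporter (0.998), YEATS4, a chromatin protein (0.994), and SLC38A2, an amino acid transporter (0.994). The SLC38A2 probe was well above background on 4 of the 6 arrays, and not on small tail Han replicate 2. A_70_P002727 of CD1D was most like STOM, a membrane protein (0.998), SLC35F2 (0.996) and SMEK1, a phosphatase subunit (0.996), and A_70_P002726 like MC5R, a melanocortin receptor (0.986), ADCYAP1, a neuropeptide (0.985), and HAND1, a transcription factor (0.965). CD1 was most like AGRP, a melanocortin antagonist (0.989), CYP17A1, a steroid-forming enzyme (0.978), and the cytokine IL6 (0.977). Of these, AGRP and IL6 were, like CD1, not well above background on small tail Han replicate 2. AGRP was well above background on 3 of the 6 arrays and IL6 on 5.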

How the data were processed

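The authors scanned 1-colour Agilent arrays and deposited, per the file headers, Feature Extraction 10.5.1.1 intensity values, background-subtracted and not normalized between arrays (a multiplicative surface correction is absent on small tail Han replicates 2 and 3), with marks for outlier spots and for spots well above background. The deposited series matrix holds log2 values with an unstated normalization; its median is 8.31 on all 6 columns, and it served as an alternative.

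Control and outlier-marked spots were dropped, spots of 1 probe averaged on the log2 scale, and each array's 75th percentile subtracted. Probes well above background on at least 3 arrays, with at least 2 values per breed, entered limma 3.58.1 in R 4.3.3 (intensity trend, two-sided, Benjamini-Hochberg at 0.05), which was tested on simulated data. The methods' t-test was an alternative, with other scalings, filters and left-out sheep. The number of arrays limits the precision.

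RefSeq accessions in assembly ARS-UI_Ramb_v3.0 named 734 of 758 such probes, and the study's probe table named others. Its fold changes and p-values were not used. The members and gene lists were chosen with earlier results of these data known. Named genes are the 5 probes, other probes of their genes, all MHC probes, in each pathway list the called genes (up to 6) and the 2 brightest uncalled, in each marker list the 3 brightest and the called (up to 4), and the 3 genes most like each probe. Figures used matplotlib 3.10.9.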

Additional observations from a re-analysis of the deposited data

How the results depend on the processing

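The breed differences of the 5 chosen probes kept their sign under every alternative run. With normexp background correction they were 6.93 for DQB1, 0.67 for PSMB8, -0.86 for A_70_P002727 and 1.06 for CD1, and the series matrix gave 7.15 for DQB1. Leaving out 1 sheep gave 7.36 to 7.67 for DQB1, 1.08 to 1.42 for PSMB8, -0.98 to -0.60 for A_70_P002726, -1.43 to -1.29 for A_70_P002727 and 1.81 to 3.07 for CD1, the lowest without small tail Han replicate 2. The 1893 calls over all probes became 712 with the methods' t-test after Benjamini-Hochberg adjustment (3234 at an unadjusted p under 0.05), and 767 to 2238 without 1 sheep (767 when small tail Han replicate 2 was dropped, 942 for replicate 3 of that breed and 1082 for Aohan replicate 3). Same-numbered sheep did not deviate together (r = -0.22, -0.37 and 0.28), and with the replicate number as a block 1234 probes were called. Under that block the calls of CANX, IRF2, CD3D and the second ITGB2 probe were lost (adjusted p = 0.0552, 0.0671, 0.0576 and 0.0773), and without the intensity trend those of CD3D, the second ITGB2 probe and A_70_P030073 (0.0653, 0.0526 and 0.0503); CXCL10 was called under the block (adjusted p = 0.0449). Calls in the lists came to 2 to 5 for class I (2 without small tail Han replicate 2, 3 without replicate 3), 1 for class II, 2 to 3 for the proteasome, 1 to 3 for interferon (1 without Aohan replicate 3) and 1 to 4 for markers (1 without small tail Han replicate 2) when 1 sheep was left out. The methods' t-test called 0 in class II, 1 in interferon and 1 among the markers, and the filter on all 6 arrays left 1 proteasome call. Uncalled genes near 0 changed sign: with normexp IFNAR1 (0.023), CD14 (-0.18), TLR2 (0.039) and SFN (-0.10), and without 1 sheep HEXA (-0.33 to 0.11), IFNAR1 (-0.314 to 0.023), CD80 (-0.297 to 0.083), FCER1A (-0.064 to 0.413), CD14 (-0.14 to 0.49), TLR2 (-0.132 to 0.043), SFN (-0.092 to 0.303) and DCN (-0.24 to 0.17). Where values moved, the cause was not tested.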
